A study of Mus musculus with 4 samples.

Results

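Titin and 8 other genes of the Z-disc, M-band and A-band of the sarcomere were followed in heart ventricles of mice with and without the P2Y6 receptor, after isoproterenol or saline. The 9 genes are Ttn, Actn2, Ldb3, Tcap, Nexn, Myom1, Myom2, Myom3 and Mybpc3, taken by gene symbol from a table of 46603 mouse genes. The rule uses no level, but the genes were listed with earlier results of these data known. All 9 were above 0 in every library and passed a minimum mean of 10 reads per library, as 14301 genes did. The 4 groups were P2Y6 KO mice on isoproterenol, WT mice on isoproterenol, P2Y6 KO mice on saline and WT mice on saline, all of the C57Bl6/J background and 8 to 12 weeks old. Isoproterenol, a beta-adrenergic agonist used to load the heart, was injected into the abdomen every day for 7 days at 50 mg/kg/day. P2Y6 is a G protein-coupled receptor for the nucleotide UDP, and the knockout mice are labelled as null for it. Each group held 1 library, and how many hearts it came from is not stated, so no comparison below had a replicate check. The largest differences among the 9 genes were in Myom2, lower in both isoproterenol libraries than in the saline libraries, and in Tcap, lowest in KO isoproterenol.

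The sarcomere, the contractile unit of muscle, runs from one Z-disc to the next with the M-band at its middle. Titin (Ttn) is a giant elastic protein that reaches from the Z-disc to the M-band. At the Z-disc its end is capped by telethonin (Tcap), and alpha-actinin-2 (Actn2), the main cross-linker of actin there, binds it too. Ldb3, also called Cypher or ZASP, is a PDZ and LIM domain protein of the Z-disc, and nexilin (Nexn) is an actin-binding protein of cardiac muscle. The myomesins (Myom1, Myom2 and Myom3) link myosin filaments and titin in the M-band, and Mybpc3 encodes cardiac myosin-binding protein C, which sits on the thick filament in the A-band. Mutations in Ttn, Mybpc3, Actn2, Ldb3, Tcap and Nexn are known from human cardiomyopathies. The reads were totals per gene, so titin isoforms, the long and short springs made by splicing, could not be told apart.

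The member that varied most, Myom2, has a close paralog in Myom1, so their sequences bear on whether reads could be split between them. Over the aligned coding parts of the annotated transcripts (GENCODE M21) Myom2 and Myom1 were 62.5% identical, and the longest run of bases they shared was 17. Myom3 was 61.0% identical to Myom1, with a longest shared run of 14 bases, and 59.6% identical to Myom2, with a run of 20 bases. None of the 5026 windows of 50 bases in the longest Myom2 transcript occurred in a transcript of another gene, and neither did any of the 5599 of Myom1. The stretch around the shared run of Myom2 (coding bases 3244 to 3320, gene on chromosome 8) and Myom1 (coding bases 3874 to 3950, gene on chromosome 17) is shown 5′ to 3′, with the shared run in capitals.
Myom2: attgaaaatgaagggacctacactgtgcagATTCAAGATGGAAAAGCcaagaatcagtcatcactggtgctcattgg
Myom1: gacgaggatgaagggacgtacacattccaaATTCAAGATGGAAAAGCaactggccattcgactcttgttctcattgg
Of the other members, 211 of 106396 such windows of Ttn also lay in Gm13938, an annotated antisense gene with 0 reads in all libraries, and 2 of 2964 windows of Actn2 lay in Actn3. Ldb3, Tcap, Myom3, Mybpc3 and Nexn had 0 shared windows.

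Promoters of 6 members were found in the RefSeq table (GRCm38.p6), 7 sequences in all since Ldb3 has a pair of starts, and Tcap, Myom2 and Nexn were not in it. The 250 bases before each start were searched on both strands for 5 motifs, the TATA box and motifs of factors known from muscle. The MEF2 motif was found in 3 of the 7 promoters, those of Ttn, Mybpc3 and Myom3, against 2.92% of 32851 promoters of the same length in the table. The CArG box of serum response factor was found in promoters of 2 of the 6 genes, Ldb3 and Myom1, against 1.47% of the promoters in the table. The windows of the Ldb3 starts overlap and hold the same copy of it. The GATA motif AGATAA was found in Myom1 alone, against 9.99% of the table. The MCAT motif CATTCC was in 0 of the 7, where 12.6% of the table held it. The letters TATAAA of a TATA box were also in 0 of the 7 promoters, where 12.4% of the table held them. A match describes letters in a window and shows no binding. The promoters that share the MEF2 motif are shown with it in capitals, because their genes had the most reads (Mybpc3, Ttn) and the fewest (Myom3) of the 9: Ttn at chr2:76982548-76982797 on the minus strand, Mybpc3 at chr2:91117894-91118143 and Myom3 at chr4:135759465-135759714 on the plus strand.
Ttn: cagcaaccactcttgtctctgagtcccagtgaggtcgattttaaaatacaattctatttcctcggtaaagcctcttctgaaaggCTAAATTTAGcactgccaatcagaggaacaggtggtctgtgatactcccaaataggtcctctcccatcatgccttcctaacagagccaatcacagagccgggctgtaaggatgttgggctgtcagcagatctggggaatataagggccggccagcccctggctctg
Mybpc3: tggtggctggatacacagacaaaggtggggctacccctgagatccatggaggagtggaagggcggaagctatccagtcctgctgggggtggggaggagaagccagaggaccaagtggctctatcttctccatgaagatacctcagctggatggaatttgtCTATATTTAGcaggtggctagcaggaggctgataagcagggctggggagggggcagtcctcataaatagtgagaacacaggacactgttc
Myom3: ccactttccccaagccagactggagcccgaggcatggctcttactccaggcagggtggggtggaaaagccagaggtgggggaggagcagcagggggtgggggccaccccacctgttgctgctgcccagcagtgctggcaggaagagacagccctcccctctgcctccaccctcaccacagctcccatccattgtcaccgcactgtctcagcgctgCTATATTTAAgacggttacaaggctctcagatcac
The motif lay farthest from the start in Ttn and nearest to it in Myom3.

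The libraries held 18771198 to 25637369 reads in listed genes, and levels are given as CPM, reads of a gene scaled to the same total in every library. P2ry6, the targeted gene, had 0.533 CPM in KO isoproterenol, 5.89 CPM in WT isoproterenol, 0.566 CPM in KO saline and 5.11 CPM in WT saline, which goes with the labels. All 14 listed cardiomyocyte genes outside the sarcomere were above 0 in every library, which does not test the ventricle label. They summed to 27817.1 CPM in KO isoproterenol, 34531.1 CPM in WT isoproterenol, 39794.7 CPM in KO saline and 40131.7 CPM in WT saline. The KO isoproterenol library stood apart: 10 fibroblast markers, all above 0 everywhere, summed to 8284.3 CPM there, against 3614.2 CPM in WT isoproterenol, 2541.3 CPM in KO saline and 2919.4 CPM in WT saline. By the ratios and 1.5-fold limit described below, 7 of these 10 were higher and 1 lower in KO isoproterenol than in KO saline. Against WT isoproterenol 5 were higher and 1 lower. Of all tested genes 7.09% were higher and 4.22% lower against KO saline, and 4.2% higher and 1.8% lower against WT isoproterenol. Macrophage markers, 10 of 10 above 0, summed to 1005.9 CPM in KO isoproterenol and 404.0 to 453.1 CPM in the other libraries. The sum for 9 endothelial markers ranged over the 4 libraries from 1220.6 to 1388.2 CPM and for 5 blood genes from 215.5 to 358.1 CPM, all above 0. The 7 atrial markers, also above 0 everywhere, summed to 281.3 CPM in KO isoproterenol, 207.6 CPM in WT isoproterenol, 173.5 CPM in KO saline and 264.3 CPM in WT saline. Among them Bmp10 had 149 reads in KO isoproterenol, 74 in WT isoproterenol, 1 in KO saline and 35 in WT saline, and the part of atrial tissue in the ratios below was not tested. The 7 smooth muscle markers summed to 4958.7 CPM in KO isoproterenol and 2354.4 to 2479.0 CPM elsewhere, most of it from Des, which cardiomyocytes also express. In bulk tissue, fewer cells of a type and less RNA per cell cannot be told apart.

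Together the 9 genes took 1.64% of the reads in KO isoproterenol, 1.59% in WT isoproterenol, 1.66% in KO saline and 1.57% in WT saline. Levels of different genes are compared only per length, as RPKM, which is CPM per kilobase of merged exons. On that scale Mybpc3 and Tcap led in all libraries: Mybpc3 had 1309.5 RPKM in KO isoproterenol, 1120.5 in WT isoproterenol, 1086.9 in KO saline and 975.7 in WT saline. Tcap, the shortest of the genes at 0.948 kb, had 695.0 RPKM in KO isoproterenol, 1207.3 in WT isoproterenol, 1157.2 in KO saline and 1245.4 in WT saline. Tcap thus lay above Mybpc3 in WT isoproterenol and both saline libraries, and below it in KO isoproterenol. Actn2 ranked 3 everywhere, from 493.3 to 543.6 RPKM. The ranks of Mybpc3, Tcap and Actn2 were the same per kilobase of the longest transcript.

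Below Mybpc3, Tcap and Actn2 the order depends on the length used, since merged exons are much longer than any transcript for Myom1 (10459 against 5648 bases) and Myom2 (8853 against 5075 bases). Per merged exons Ldb3 ranked 4, from 176.0 to 194.4 RPKM, and per longest transcript Myom1 lay above it in all libraries and Myom2 in the saline libraries. Myom2 lay below Myom1 in both isoproterenol libraries by either length, and in saline the order of these near-equal levels turned with the length in WT. Ttn, with more reads than any member but Mybpc3, ranked 8 per length at 34.2 to 36.8 RPKM over 116.8 kb of merged exons. No single titin transcript holds all of those exons, so this understates it. Myom3, a myomesin known mainly from skeletal muscle, was last in every library, from 0.665 to 1.16 RPKM.

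**Figure D1:**
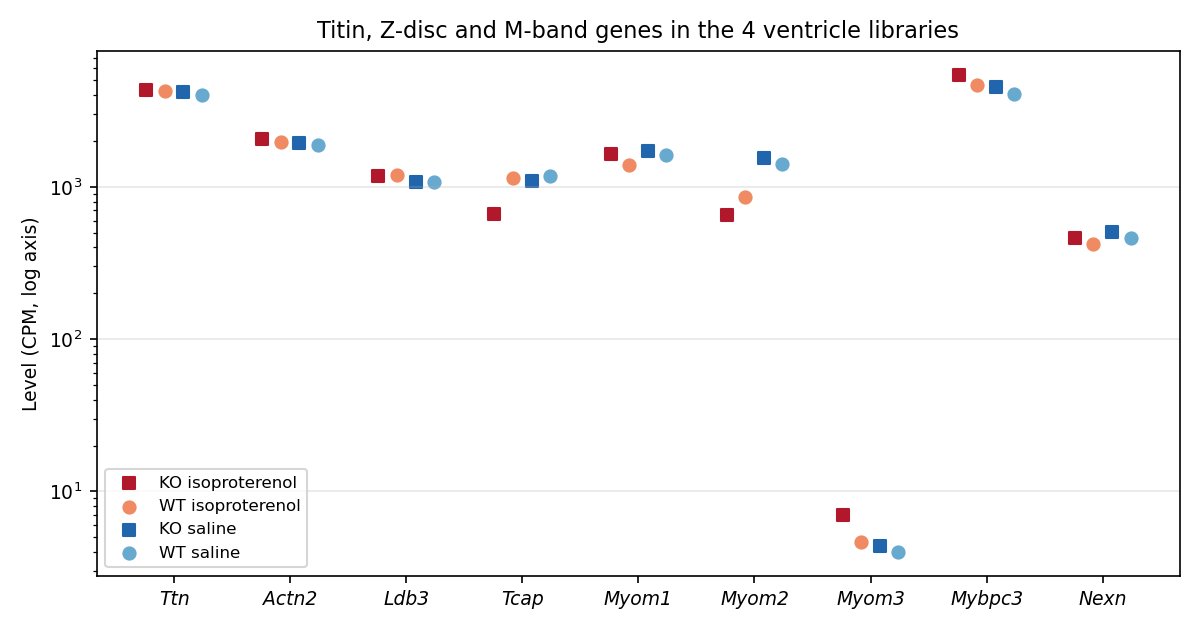
Level of each gene (CPM, log axis) in the 4 libraries, 1 point per library, squares for KO and circles for WT. Tcap stands low in KO isoproterenol alone (659 CPM), Myom2 stands low in both isoproterenol libraries (649.9 CPM in KO, 861 CPM in WT), and Myom3, the lowest gene, has 6.98 CPM in KO isoproterenol and 4.02 to 4.63 CPM in the other libraries.

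Ttn (chr2:76703980-76982547, minus strand, GRCm38) had 4295 CPM in KO isoproterenol, 4268 in WT isoproterenol, 4220.0 in KO saline and 3998 in WT saline. These are among the flattest values of the 9. Ratios between libraries were taken from recovered reads after TMM scaling, which sets libraries to a common level over most genes and is not the same as comparing CPM. With it, KO isoproterenol was 1.11-fold lower than KO saline for Ttn (95% counting interval 1.10 to 1.13), and WT isoproterenol was 1.13-fold higher than WT saline (1.12 to 1.14). KO isoproterenol was 1.15-fold lower than WT isoproterenol (1.14 to 1.16) and KO saline 1.09-fold higher than WT saline (1.08 to 1.10). The lower Ttn ratio in KO hearts depends on the scaling: against KO saline it was 0.03 on the log2 scale by total reads and 0.54 scaled to summed cardiomyocyte genes, where TMM gave -0.16. Against WT isoproterenol it was 0.01 by total reads and 0.32 with cardiomyocyte genes, where TMM gave -0.20. All intervals here cover counting error only and compare libraries, not conditions.

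Tcap, the titin cap (chr11:98383811-98384953, plus strand), had 659 CPM in KO isoproterenol, 1145 in WT isoproterenol, 1097 in KO saline and 1181 in WT saline. One library stood low, KO isoproterenol, and the other libraries lay close to each other. The KO isoproterenol library was 1.89-fold lower than KO saline (1.85 to 1.93) and 2.01-fold lower than WT isoproterenol (1.97 to 2.06). WT isoproterenol was 1.02-fold higher than WT saline (1.01 to 1.04), or lower by total reads (log2 -0.04), and KO saline was 1.04-fold lower than WT saline (1.02 to 1.06). Of all tested genes, 4.5% had a lower ratio than Tcap in KO isoproterenol over KO saline and 1.99% in KO isoproterenol over WT isoproterenol. Scaled to cardiomyocyte genes, both Tcap ratios stayed below 1 but within 1.5-fold (log2 -0.22 and -0.48). The isoproterenol response of Tcap was lower in KO than in WT by a difference of -0.95 on the log2 scale (-0.99 to -0.91), or -0.39 with cardiomyocyte genes.

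The other Z-disc members moved little. Actn2 (chr13:12269426-12340760, minus strand) had 2063 CPM in KO isoproterenol, 1976 in WT isoproterenol, 1929 in KO saline and 1872 in WT saline. Ldb3 (chr14:34526603-34588682, minus strand) had 1182 CPM in KO isoproterenol, 1187 in WT isoproterenol, 1075 in KO saline and 1077 in WT saline. Both were a little higher with isoproterenol in CPM, and after TMM scaling the KO ratios fell on the other side of 1. Against KO saline, KO isoproterenol was 1.06-fold lower for Actn2 (1.05 to 1.08) and 1.03-fold lower for Ldb3 (1.01 to 1.05). Both ratios were above 1 by total reads (log2 0.10 and 0.14). Against WT saline, WT isoproterenol was 1.12-fold higher for Actn2 (1.10 to 1.13) and 1.16-fold higher for Ldb3 (1.14 to 1.18). Between genotypes, KO isoproterenol was lower than WT isoproterenol by 1.11-fold for Actn2 (1.09 to 1.13) and 1.16-fold for Ldb3 (1.14 to 1.19), by total reads a log2 ratio of 0.06 for Actn2, and with cardiomyocyte genes the Ldb3 ratio was above 1 too (log2 0.31). In saline, KO was 1.07-fold higher than WT for Actn2 (1.05 to 1.08) and 1.03-fold for Ldb3 (1.01 to 1.05), the last at 1 by total reads.

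Nexn (chr3:152236982-152266350, minus strand) had 464 CPM in KO isoproterenol, 424 in WT isoproterenol, 508 in KO saline and 461 in WT saline. It was highest in KO saline, and its KO isoproterenol library was 1.24-fold lower than that (1.21 to 1.28). In WT the isoproterenol library was 1.03-fold lower (1.0 to 1.06). KO isoproterenol was 1.06-fold lower than WT isoproterenol (1.03 to 1.09), though higher by total reads (log2 0.13), and KO saline was 1.14-fold higher than WT saline (1.11 to 1.17). Gm43185, which overlaps Nexn on the same strand, had 74 to 108 reads, a small part of the Nexn count.

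Among the M-band genes, Myom2, the myomesin of adult heart and fast skeletal muscle (chr8:15057653-15133541, plus strand), had 649.9 CPM in KO isoproterenol, 861 in WT isoproterenol, 1553 in KO saline and 1404 in WT saline. The isoproterenol libraries lay well below both saline libraries, KO lowest, and the saline libraries were close to each other. KO isoproterenol was 2.71-fold lower than KO saline (2.66 to 2.77), the widest gap among the members, and 1.5% of all tested genes had a lower ratio. WT isoproterenol was 1.54-fold lower than WT saline (1.52 to 1.57), where 3.87% of genes were lower. KO isoproterenol was 1.54-fold lower than WT isoproterenol (1.5 to 1.57), at the edge of the 1.5-fold limit and within it by total reads (log2 -0.41) and with cardiomyocyte genes (log2 -0.09), and KO saline was 1.14-fold higher than WT saline (1.13 to 1.16). The difference of responses, KO minus WT, was -0.81 on the log2 scale (-0.85 to -0.77), but -0.55 by total reads and -0.25 with cardiomyocyte genes, both within 1.5-fold.

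Myom1, the myomesin found in all striated muscle (chr17:71002633-71126856, plus strand), had 1652 CPM in KO isoproterenol, 1393 in WT isoproterenol, 1708 in KO saline and 1614 in WT saline. WT isoproterenol was the lowest of these. KO isoproterenol was 1.17-fold lower than KO saline (1.16 to 1.19) and 1.02-fold higher than WT isoproterenol (1.01 to 1.04), and WT isoproterenol was 1.10-fold lower than WT saline (1.08 to 1.11). KO saline was 1.10-fold higher than WT saline, with the same interval. The annotated start of Myom1 overlaps Myl12a, an abundant gene on the opposite strand with 7925 to 14430 reads. Whether counting used strand is not given in the sources used here.

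Myom3 (chr4:135759715-135815564, plus strand) rested on few reads: 131 in KO isoproterenol, 96 in WT isoproterenol, 100 in KO saline and 103 in WT saline, or 6.98, 4.63, 4.35 and 4.02 CPM in the same order. KO isoproterenol was the highest, and the other libraries were close. KO isoproterenol was 1.41-fold higher than KO saline (1.08 to 1.85) and 1.30-fold higher than WT isoproterenol, an interval that holds 1 (0.991 to 1.71). WT isoproterenol was 1.22-fold higher than WT saline (0.913 to 1.63) and KO saline 1.12-fold higher than WT saline (0.843 to 1.49), so these differences were not detectable at this depth. Of 16 skeletal muscle markers, 12 were above 0 in KO isoproterenol and 14 in each other library, and they summed to 155.6 CPM in KO isoproterenol, 47.7 in WT isoproterenol, 75.3 in KO saline and 68.7 in WT saline. Their sum was highest in KO isoproterenol, as Myom3 was, while single genes differed in direction. Against KO saline 3 of the 8 tested ratios were above 1 and 5 below, with 2 beyond 1.5-fold upward and 0 downward. Against WT isoproterenol 3 of the 8 were beyond 1.5-fold upward and 0 downward. Of all tested genes 7.09% and 4.2% were upward in these comparisons, in that order. Myl1, 93.1 CPM of the KO isoproterenol sum, was 3.76-fold higher there than in KO saline (3.4 to 4.16) and Tnnt3 was higher by 9.62-fold to 59.9-fold, the ends of its interval, while Tnnt1 was 1.53-fold lower (1.25 to 1.88) and Mybpc2 within counting error of KO saline (1.08-fold, 0.968 to 1.2). Myh4 was at 0 in all libraries and Myh1 and Myh2 at 0 in KO isoproterenol, and the part of these transcripts in the Myom3 value was not tested.

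Mybpc3 on the thick filament (chr2:91118144-91136516, plus strand) had 5452 CPM in KO isoproterenol, 4664 in WT isoproterenol, 4525 in KO saline and 4062 in WT saline. It was highest in KO isoproterenol and lowest in WT saline. KO isoproterenol was 1.06-fold higher than KO saline (1.05 to 1.07), WT isoproterenol 1.21-fold higher than WT saline (1.2 to 1.22) and KO saline 1.15-fold higher than WT saline (1.14 to 1.16). KO and WT isoproterenol were within counting error of each other (1.01-fold, 1.0 to 1.02) with TMM, while by total reads the log2 ratio was 0.225 and with cardiomyocyte genes 0.54.

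**Figure D2:**
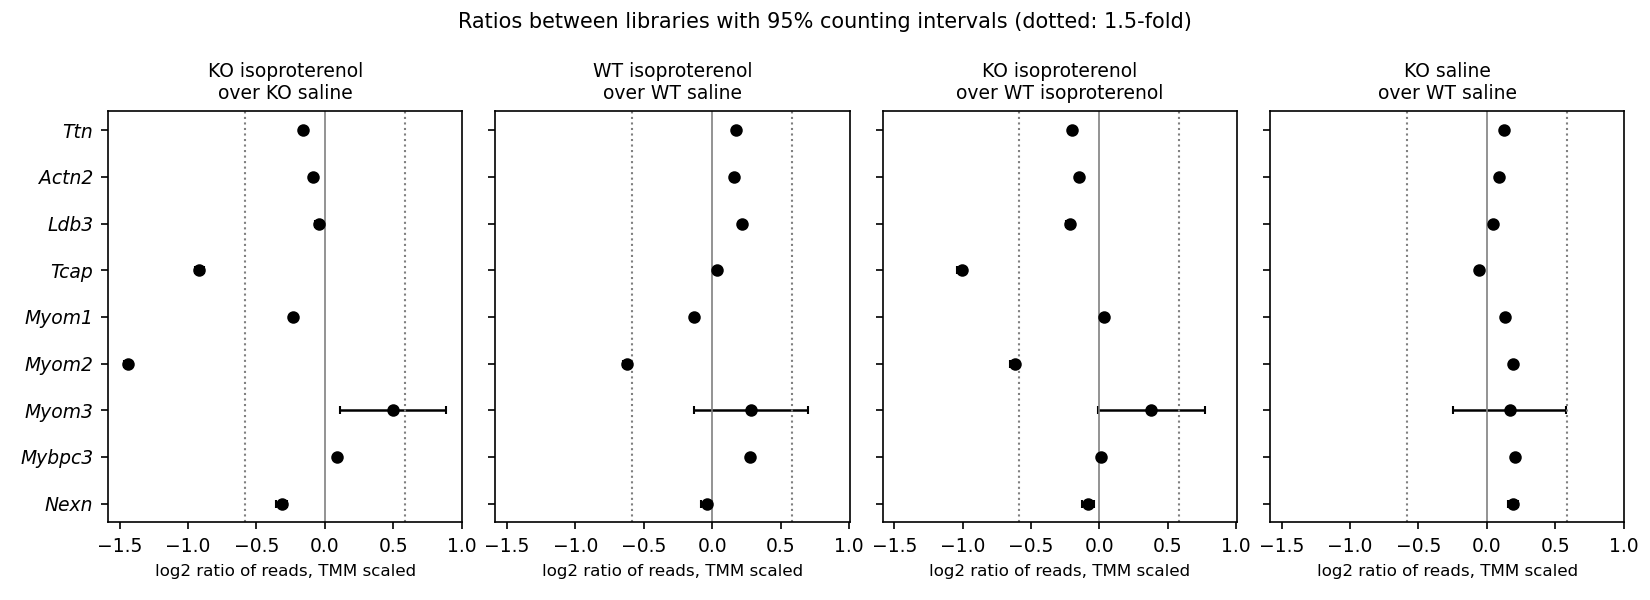
Log2 ratio of reads after TMM scaling (horizontal axis) for each gene in the 4 comparisons of libraries, with 95% counting intervals as bars and 1.5-fold as dotted lines. Tcap and Myom2 lie beyond the dotted line in both comparisons with KO isoproterenol on top, Myom2 lies just beyond it in WT isoproterenol over WT saline, and no gene does in KO saline over WT saline.

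A gene was counted as beyond 1.5-fold where its whole counting interval lay there. In KO isoproterenol over KO saline 2 of the 9 genes were lower (Tcap and Myom2) and 0 higher, where 4.22% of all tested genes were lower and 7.09% higher (11.3% in either direction). In WT isoproterenol over WT saline 1 of 9 was lower (Myom2) and 0 higher, where 0.797% of all tested genes were lower and 0.86% higher (1.66% in either direction). Among the 3058 genes that averaged 1000 reads or more, closer to most of the 9 in depth, 8.37% were lower in the KO response and 0.883% in the WT response. The members' median log2 ratio was -0.16 in KO and 0.16 in WT, beside -0.13 and -0.01 for genes with at least 1000 reads. In WT, 6 of the 9 ratios were above 1, and in KO 2 of the 9 were.

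In KO isoproterenol over WT isoproterenol 2 of 9 genes were lower (Tcap and Myom2) and 0 higher. Of all tested genes 1.8% were lower and 4.2% higher there (6.0% in either direction), and of those with at least 1000 reads 3.56% were lower. By total reads Tcap alone was counted, as without mitochondrial genes in the total, and with cardiomyocyte genes 0 were. Of all tested genes 8.08%, 6.6% and 18.7% were counted in either direction under those scalings, in that order. Downward, the direction of Tcap, 112, 178 and 42 of the 14301 tested genes were counted. The members' median was -0.15, beside -0.08 for genes with at least 1000 reads. This comparison shares the KO isoproterenol library with the KO response, so the same values of Tcap and Myom2 enter both. In KO saline over WT saline 0 of 9 genes were beyond 1.5-fold, where 0.489% of all tested genes were (0.273% higher, 0.217% lower) and 0.0981% of those with at least 1000 reads were lower. There 8 of 9 ratios were above 1 with a median of 0.13. The difference of responses lay beyond 1.5-fold downward for 2 of 9 (Tcap and Myom2), where 1.73% of all tested genes and 4.09% of those with at least 1000 reads did. Upward the share was 3.83% (5.57% in either direction), with 0 of the 9 genes, and the members' median difference was -0.26. By total reads Tcap alone was counted in the difference, downward. Of all tested genes 8.02% were counted there in either direction, and 85 of the 14301 downward. With cardiomyocyte genes 0 members were counted, where 17.7% of all tested genes were in either direction. Tcap and Myom2 stood lowest in the library with the highest fibroblast and macrophage sums (8284.3 and 1005.9 CPM in KO isoproterenol), and the part of other cell types in these ratios was not tested.

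Ratios within a library need no scaling between libraries. Myom2 made up 28.2% of the reads of Myom2 and Myom1 together in KO isoproterenol (exact Clopper-Pearson 95% interval 27.8 to 28.7), 38.2% in WT isoproterenol (37.8 to 38.6), 47.6% in KO saline (47.3 to 48.0) and 46.5% in WT saline (46.2 to 46.9). The Myom2 share was lowest in KO isoproterenol, next lowest in WT isoproterenol and near equal in the saline libraries. Relative to Myom1, Myom2 was 2.31-fold lower in KO isoproterenol than in KO saline (2.25 to 2.37) and 1.41-fold lower in WT isoproterenol than in WT saline (1.37 to 1.44). KO isoproterenol was 1.57-fold lower than WT isoproterenol by this ratio (1.53 to 1.62), and KO saline 1.05-fold higher than WT saline (1.02 to 1.07). Per length, Myom2 was 31.6% of the summed myomesin RPKM in KO isoproterenol, 42.1% in WT isoproterenol, 51.7% in KO saline and 50.6% in WT saline, while Myom3 stayed under 1% with 0.497% as its highest.

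Tcap made up 13.3% of the reads of Tcap and Ttn together in KO isoproterenol (13.1 to 13.5), 21.1% in WT isoproterenol (20.9 to 21.4), 20.6% in KO saline (20.4 to 20.9) and 22.8% in WT saline (22.6 to 23.0). KO isoproterenol alone was low. Relative to Ttn, Tcap was 1.69-fold lower in KO isoproterenol than in KO saline (1.66 to 1.73) and 1.75-fold lower than in WT isoproterenol (1.71 to 1.79), and 1.10-fold lower in WT isoproterenol than in WT saline (1.08 to 1.12). Actn2 had 0.48 reads per Ttn read in KO isoproterenol, 0.463 in WT isoproterenol, 0.457 in KO saline and 0.468 in WT saline, a narrow range. Mybpc3 had 1.27 reads per Ttn read in KO isoproterenol, 1.09 in WT isoproterenol, 1.07 in KO saline and 1.02 in WT saline. Relative to Ttn, Mybpc3 was 1.18-fold higher in KO isoproterenol than in KO saline (1.17 to 1.2) and 1.16-fold higher than in WT isoproterenol (1.15 to 1.18).

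**Figure D3:**
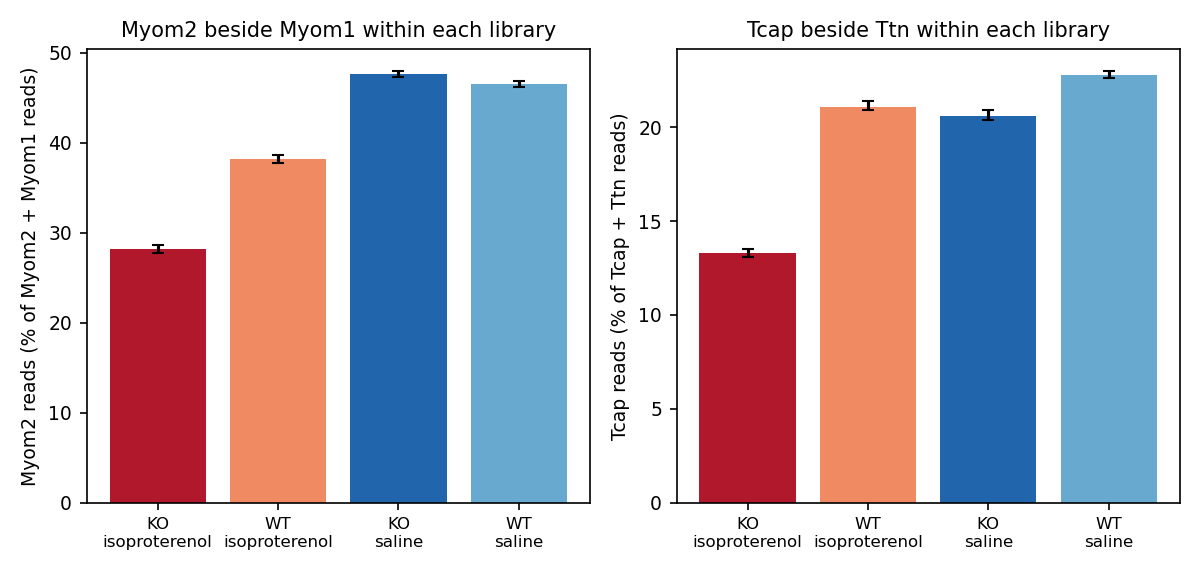
Bars give Myom2 reads as a percent of Myom2 and Myom1 reads (left) and Tcap reads as a percent of Tcap and Ttn reads (right) in each library, with exact 95% counting intervals. Myom2 is lowest in KO isoproterenol (28.2%) and next lowest in WT isoproterenol (38.2%), and Tcap is low in KO isoproterenol alone (13.3%).

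Scaling moved the small ratios past 1 but not those of Myom2 and Tcap in KO hearts. Against TMM, scaling by total reads shifted the median of all genes in KO isoproterenol over KO saline by 0.18 on the log2 scale, total reads without mitochondrial genes by 0.11, and the summed cardiomyocyte genes by 0.70. Myom2 stayed below 1 in that comparison under all 5 scalings, from -1.44 with TMM to -0.74 with cardiomyocyte genes, and Tcap did too, from -0.92 to -0.22, the last of these within 1.5-fold. In WT isoproterenol over WT saline Myom2 ran from -0.71 with total reads to -0.49 with cardiomyocyte genes, where it was no longer beyond 1.5-fold. Actn2 and Ldb3 passed 1 under 3 of the alternatives, Ttn under 2 and Myom1 and Nexn under cardiomyocyte genes only. With cardiomyocyte genes 4 members lay beyond 1.5-fold upward in the KO response (Actn2, Ldb3, Myom3 and Mybpc3) and Myom2 alone downward, where 5167 of the 14301 tested genes were counted upward and 92 downward, so that the upward share of members was near that of all genes. That reference was itself uneven: Atp2a2, which pumps calcium back into the sarcoplasmic reticulum, held 19.8% of its reads in KO isoproterenol, 24.4% in WT isoproterenol, 34.7% in KO saline and 34.5% in WT saline. Atp2a2 was 2.85-fold lower in KO isoproterenol than in KO saline (2.83 to 2.87).

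**Figure D4:**
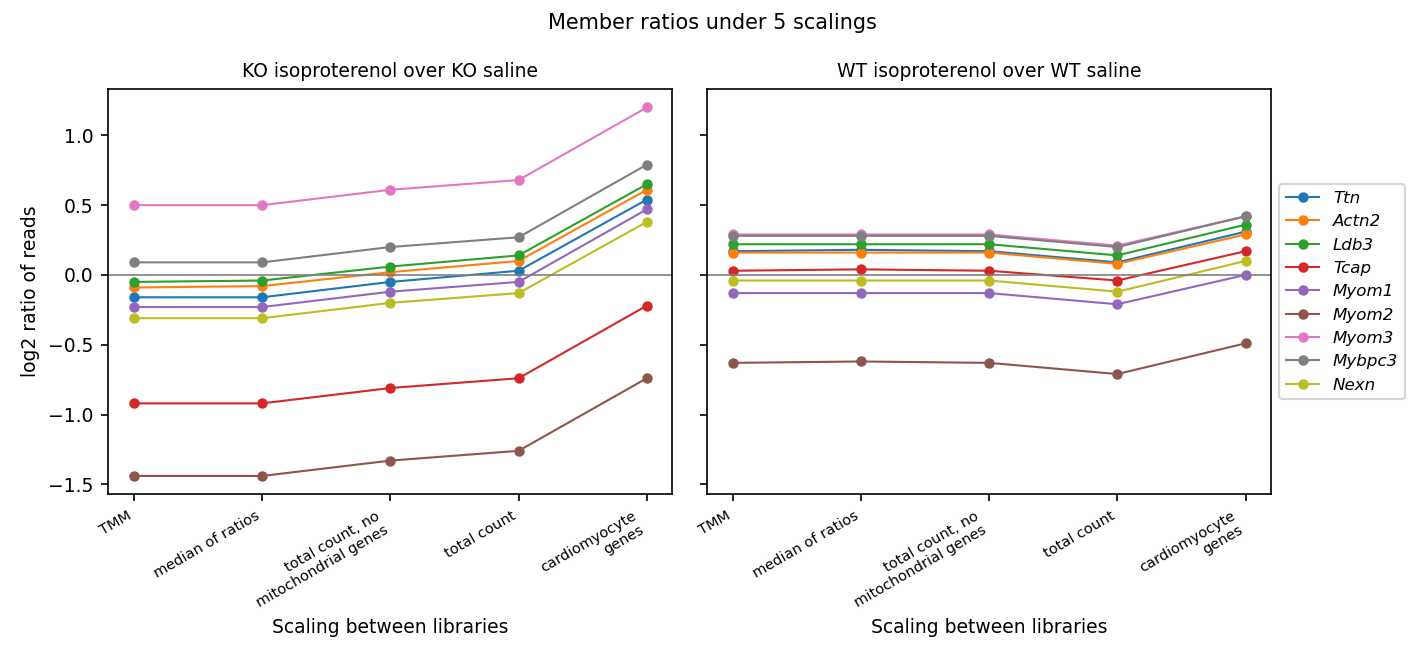
Log2 ratio of reads for each gene under 5 scalings between libraries, for KO isoproterenol over KO saline (left) and WT isoproterenol over WT saline (right). In KO, Myom2 (-1.44 to -0.74) and Tcap (-0.92 to -0.22) stay below 0 while Ttn, Actn2, Ldb3, Myom1 and Nexn cross it, and in WT Myom2 stays below 0 (-0.71 to -0.49).

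An additive fit of treatment and genotype over the 4 libraries, with limma on log2(CPM + 1), leaves 1 residual degree of freedom. By treatment it called 368 genes, 2.57% of those tested, among them 1 of the 9 members: Myom2, lower in both isoproterenol libraries than in their saline libraries, with a log2 difference of -0.98 and an adjusted p of 0.007655. That call was not made with edgeR on recovered reads (adjusted p = 0.2201) or with limma on TMM-scaled CPM (adjusted p = 0.288), and over 7 settings its adjusted p ran from 0.0004475 to 0.288. By genotype limma called 14 genes, 0.0979% of those tested, and 0 members. Tcap had the lowest unadjusted p of the members by genotype in limma (0.03604, adjusted p = 1), with a log2 difference of -0.45.

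Among 24 tested genes of the Z-disc outside the 9, 6 were higher and 2 lower (Myot, 1.83-fold, and Myoz2, 1.72-fold) in KO isoproterenol than in KO saline, and their median log2 ratio was 0.13. Of all tested genes 7.09% were higher and 4.22% lower there. Actn1, the alpha-actinin of non-muscle cells, had 93.4 CPM in KO isoproterenol, 47.3 in WT isoproterenol, 37.6 in KO saline and 42.5 in WT saline. Only KO isoproterenol stood high, 2.19-fold above KO saline (2.02 to 2.38) and 1.70-fold above WT isoproterenol (1.57 to 1.84). Pdlim3 was 2.28-fold higher in KO isoproterenol than in KO saline (1.97 to 2.66), Capza1, an actin capping protein, 2.12-fold (1.87 to 2.40), and Pdlim5 2.0-fold (1.95 to 2.04). Under total reads 8 were higher and 0 lower, since Myot and Myoz2 then fell short of the limit. Scaled to cardiomyocyte genes 17 were higher with a median of 0.83. Of the 14301 tested genes, 1445 were higher under total reads and 5167 with cardiomyocyte genes, where their median was 0.70. The fibroblast markers, whose sum was high in KO isoproterenol, stand beside these values, and the part of fibroblasts in them was not tested.

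In WT isoproterenol over WT saline 1 of the 24 was higher, Smpx, a small protein of striated muscle, at 1.60-fold (1.54 to 1.65), where under total reads 0 were and with cardiomyocyte genes 3. Of the 14301 tested genes 123 were higher with TMM and 200 with cardiomyocyte genes. Fhl2, a LIM protein that binds titin and had the most reads of this list, was 1.18-fold higher in KO isoproterenol than in KO saline (1.16 to 1.2) and 1.48-fold higher in WT isoproterenol than in WT saline (1.46 to 1.5). Synpo2l had 245.3 CPM in KO isoproterenol, 115.1 in WT isoproterenol, 165.6 in KO saline and 164.2 in WT saline. It was 1.84-fold higher in KO isoproterenol than in WT isoproterenol (1.75 to 1.93), and the WT isoproterenol library was its lowest. In KO saline over WT saline 1 of the 24 was higher, Myot (myotilin), at 1.90-fold (1.72 to 2.10).

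Of all tested genes 7.09% were higher and 4.22% lower in KO isoproterenol than in KO saline. Of 14 genes listed as titin-binding or M-band associated, 0 were higher and 3 lower there, with a median of -0.30. They were Capn3, a protease anchored on titin, 2.44-fold lower (1.59 to 3.92) on 29 reads in KO isoproterenol and 77 in KO saline, Trim54 (MuRF3) 1.83-fold lower (1.72 to 1.95) and Ckm, the muscle creatine kinase found at the M-band, 1.68-fold lower (1.65 to 1.72). Under total reads Trim54 alone was counted and the median was -0.11. Scaled to cardiomyocyte genes 0 were lower with 3 higher, and the median was 0.40. With that scaling 5167 of the 14301 tested genes were higher, and the median of all tested genes, 0.70, lay above that of the list. In WT 0 of 14 were beyond 1.5-fold, and the median was -0.12. Ckm, the gene of the list with the most reads, was 1.61-fold lower in KO isoproterenol than in WT isoproterenol (1.58 to 1.65), and under total reads 0 of 14 were counted there.

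Of 14 thick and thin filament genes, 1 was higher and 4 lower in KO isoproterenol than in KO saline, with a median of -0.30 (-0.12 under total reads). Of all tested genes 7.09% were higher and 4.22% lower in this comparison. The ventricular light chain Myl2 was 2.10-fold lower (2.08 to 2.11), Myl3 1.73-fold (1.72 to 1.75), troponin I (Tnni3) 1.69-fold (1.67 to 1.71) and alpha-myosin (Myh6), with the most reads, 1.53-fold (1.52 to 1.54). Acta1, skeletal actin, was 1.84-fold higher (1.80 to 1.87). Under total reads Tnni3 and Myh6 were no longer counted. Scaled to cardiomyocyte genes 0 were lower, 4 were higher and the median was 0.40. With that scaling 5167 of the 14301 tested genes were higher, and the median of all tested genes was 0.70. In WT 0 of 14 were beyond 1.5-fold. In KO isoproterenol over WT isoproterenol 2 were higher (Acta1 and Myh7) and 3 lower (Myl2, Tnni3 and Myl3). Of all tested genes 4.2% were higher and 1.8% lower there. Under total reads none of Myl2, Tnni3 and Myl3 was counted as lower, where 112 of the 14301 tested genes were. In KO saline over WT saline Acta1 alone was counted, 2.10-fold higher (2.05 to 2.15), where 0.489% of all tested genes were counted. The difference of responses for Acta1 was 1.44-fold (1.39 to 1.49), within the 1.5-fold limit. Of the 14 cardiomyocyte genes outside the sarcomere, 0 were higher and 4 lower in the KO response (Hrc, Atp2a2, Fabp3 and Mb), and the median was -0.20. Under total reads 2 were higher (Slc8a1 and Hspb7), 3 lower without Mb, and the median was -0.02. Scaled to cardiomyocyte genes 5 were higher, 2 lower and the median was 0.50, below the 0.70 of all tested genes. That scaling uses the summed reads of these same 14 genes, so it is no separate check of this list. In WT isoproterenol over WT saline with TMM, 1 of the 14 was higher (Hspb7, 1.77-fold) and 2 lower (Atp2a2 and Fabp3, each 1.55-fold). Of all tested genes 0.86% were higher and 0.797% lower there. In KO isoproterenol over WT isoproterenol 0 were higher and 4 lower (Atp2a2, Pln, Mb and Hrc). Of all tested genes 4.2% were higher and 1.8% lower in that comparison. In the KO response with TMM, Myom2 and Tcap lay beside the lower genes of these lists. Ttn, Actn2, Ldb3, Myom1, Nexn and Mybpc3 differed by at most 1.24-fold there, and Myom3 was 1.41-fold higher. Scaled to cardiomyocyte genes, Actn2, Ldb3, Myom3 and Mybpc3 lay beyond 1.5-fold upward.

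**Figure D5:**
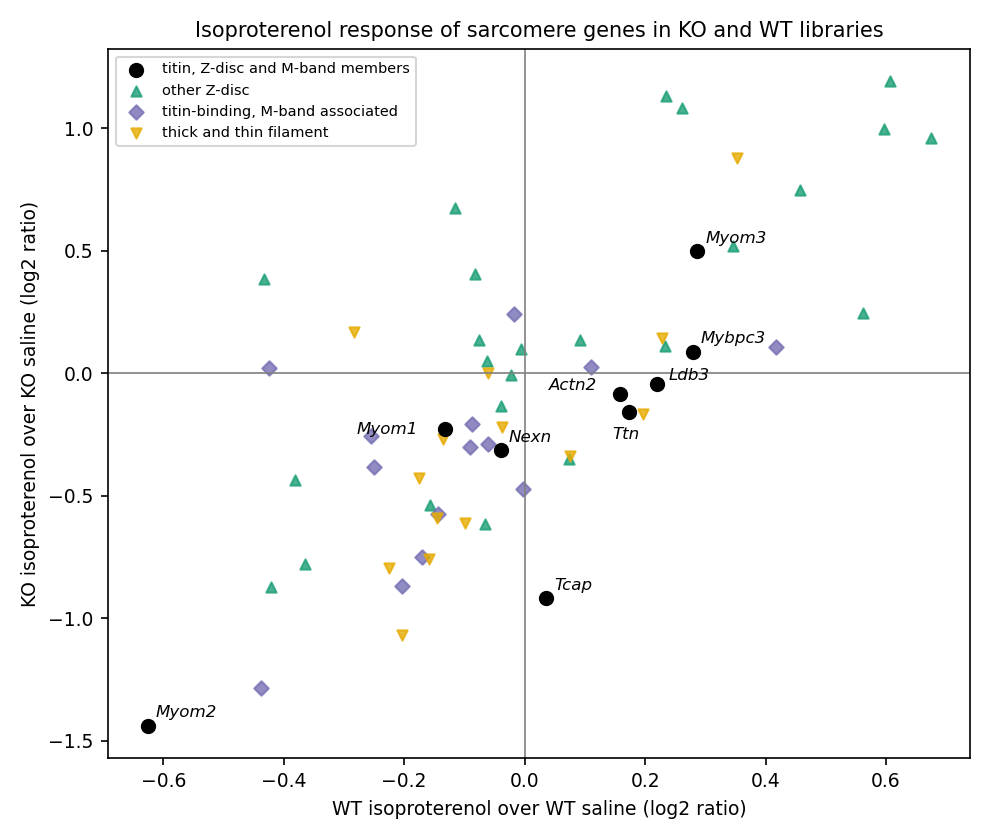
Log2 ratio of isoproterenol over saline in KO libraries (vertical axis) and in WT libraries (horizontal axis) after TMM scaling, 1 point per gene, for the 9 genes (black, named) and 3 other groups of sarcomere genes. Myom2 is the lowest on both axes (-1.44 in KO, -0.63 in WT) and Tcap is low in KO alone (-0.92, with 0.03 in WT).

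The genes most like Myom2 over the 4 libraries, by the root mean square difference of centred log2 levels among 10442 genes with at least 100 mean reads, were Agpat9 (0.0223), Mlycd (0.0276), Tmod4 (0.0505), Fam65b (0.0528) and Slc25a22 (0.0539). Mlycd, malonyl-CoA decarboxylase of fatty acid oxidation, had 51.5 CPM in KO isoproterenol, 67.5 in WT isoproterenol, 117.2 in KO saline and 107.7 in WT saline. Tmod4, a tropomodulin known from skeletal muscle, had 8.36 CPM in KO isoproterenol, 10.4 in WT isoproterenol, 20.5 in KO saline and 17.4 in WT saline. Both were lowest in KO isoproterenol and next lowest in WT isoproterenol. The genes most like Ttn were Sepsecs (0.0067), Cdk5rap1 (0.0104), Rwdd1 (0.0122), Nicn1 (0.0127) and Bche (0.0143), all of them flat over the libraries. With 4 libraries such likeness is a description, and flat genes find close neighbours easily.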

How the data were processed

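The mRNA libraries were made with a stranded mRNA kit, per the labels' protocols, 1 for each of the 4 groups. The authors deposited CPM per Ensembl gene, and a column that names only the genotype was read as saline. HTSeq did the counting and the build was GRCm38.p4 (mm10), per the submitters' processing notes. The aligner, annotation release and strand setting were not given in the sources used here. Dividing each column by the value of 1 read (0.0533 CPM in KO isoproterenol, 0.0483 in WT isoproterenol, 0.0435 in KO saline, 0.0390 in WT saline) gave whole reads for 100% of values within 0.01 reads.

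Ratios of recovered reads were scaled by TMM (edgeR 4.0.16) over genes averaging 10 reads or more, with 0.5 added to each count, and carry an exact conditional (Clopper-Pearson) 95% interval. Intervals for the difference of responses, and for a ratio of ratios, use the normal approximation on log counts. Intervals cover counting error only, since each group had 1 library. Without molecular identifiers reads are no independent molecules, so the intervals may be too narrow even for counting error. The additive test was trended limma (3.58.1) on log2(CPM + 1), BH adjusted at 0.05 over all tested genes. edgeR's quasi-likelihood test on recovered reads, an alternative, called 22 genes by treatment and 3 by genotype, and DESeq2 1.42.0 was another. Other alternatives were 4 scalings, other read minimums, fold limits and pseudocounts. Code was tested on simulated data. Gene positions and lengths came from GENCODE M21, which may differ from the authors' annotation, and promoters from RefSeq.

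The members and the gene lists were chosen with earlier results of these data known. The rule named all 9 members, from each other list the genes beyond 1.5-fold, up to the 4 with the largest log2 ratio, and the one with the most reads, the 5 genes most like Ttn and most like the member of widest range, and P2ry6. Atp2a2, Hrc, Fabp3 and Mb are called genes of the cardiomyocyte list in the KO response. With 1 library per group, p-values measure only the fit of an additive model to these libraries.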

Additional observations from a re-analysis of the deposited data

Results flagged for a closer look

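After TMM scaling 4 genes had isoproterenol ratios on opposite sides of 1 in the genotypes. The log2 ratio of isoproterenol over saline was -0.16 in KO and 0.17 in WT for Ttn, -0.09 in KO and 0.16 in WT for Actn2, -0.05 in KO and 0.22 in WT for Ldb3, and -0.92 in KO and 0.03 in WT for Tcap. With 1 library per group the difference was not tested over replicates. The opposite signs were not kept under total-count scaling, where Ttn had 0.03 in KO and 0.09 in WT, Actn2 0.10 in KO and 0.08 in WT, Ldb3 0.14 in KO and 0.14 in WT, and Tcap -0.74 in KO and -0.04 in WT.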

How the results depend on the processing

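No paired analysis was possible because each group has 1 library and the labels carry no replicate numbers, and leaving out a library leaves the additive fit no residual degree of freedom, so that was not run. Median-of-ratios size factors, no filter on reads and nothing added to counts gave the same count of members in all 5 comparisons and medians that differed by at most 0.01 as rounded. The comparisons are, in order, KO isoproterenol over KO saline, WT isoproterenol over WT saline, KO isoproterenol over WT isoproterenol, KO saline over WT saline, and the difference of responses. Under total-count scaling the members' median log2 value was 0.03, 0.08, 0.06, 0.08 and 0.0, against -0.16, 0.16, -0.15, 0.13 and -0.26 with TMM. By total counts Tcap was the 1 member beyond 1.5-fold in KO over WT isoproterenol (8.08% of tested genes) and in the difference of responses (8.02%). Lower, as Tcap was, were 112 and 85 of the 14301 tested genes, in that order. Without mitochondrial genes in the total, 178 were lower in KO over WT isoproterenol. Without mitochondrial genes in the total, the medians were -0.05 in the KO response, -0.06 in KO over WT isoproterenol, 0.11 in KO over WT saline and -0.16 in the difference, with 1 member (Tcap) beyond 1.5-fold in KO over WT isoproterenol (6.6% of tested genes). With cardiomyocyte genes they were 0.54, 0.29, 0.37, 0.09 and 0.30, with 5 members beyond 1.5-fold in the KO response, where 36.8% of tested genes were, and 0 in the WT response, KO over WT isoproterenol and the difference, where 280 of the 14301 tested genes, 18.7% and 17.7% were, in that order. A minimum of 100 mean reads gave medians of -0.13 in the KO response and in KO over WT isoproterenol. It left 1 member (Tcap) counted in KO over WT isoproterenol, where 5.9% of tested genes were, and 197 of 10442 were lower. Beyond 1.2-fold the members counted were 3 in the KO response (Tcap, Myom2 and Nexn; 25.7% of tested genes), 2 in the WT response (Myom2 and Mybpc3; 6.11%), 2 in KO over WT isoproterenol (17.0%), 0 in KO over WT saline (1.85%) and 3 in the difference (Ttn, Tcap and Myom2; 15.6%). Beyond 2-fold 1 was counted in the KO response (Myom2; 4.9% of tested genes, 1.3% lower) and 0 in the WT response (0.587%), KO over WT isoproterenol (1.98%) and the difference (1.85%).

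The share of calls over all genes that were higher in the KO response was 62.7% with TMM, 80.2% with total counts, 73.9% without mitochondrial genes and 98.3% with cardiomyocyte genes. In KO over WT isoproterenol these shares were 69.9%, 90.3%, 81.1% and 98.4%, and in the difference of responses 68.8%, 92.6%, 82.5% and 98.7%. In the WT response they were 51.9% with TMM, 40.6% with total counts and 71.4% with cardiomyocyte genes. In KO over WT saline they were 55.7% with TMM and 74.3% with a minimum of 100 mean reads. The additive fit called 368 genes by treatment with limma, 174 with DESeq2 (278 adjusted p-values were NA), 22 with edgeR, 965 with no filter, 647 with a pseudocount of 0.1, 135 with 5, and 1 on TMM-scaled CPM. By genotype it called 14 with limma, 3 with edgeR, 195 with no filter, 60 with a pseudocount of 0.1, 7 with 5, and 0 on TMM-scaled CPM by limma, where 412 genes had an unadjusted p under 0.05, while DESeq2 called 13. The cause of these differences was not tested. Of 522 single-gene values under an alternative, 0 reversed a call, 388 stayed, 111 moved, 18 lost a call and 5 gained one on the same side of 1. Those that moved left their interval or gained a call on the other side of 1. Actn2 and Ldb3 did the latter in the KO response with cardiomyocyte genes. Myom3, at about 100 reads a library, is limited by depth.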
